A study of Rattus norvegicus with 6 samples.

Results

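Fragments of the nuclear glycine tRNAs with the anticodons GCC and TCC were described in the hippocampus of nicotine-treated and saline-treated rats. A fragment was included where its deposited name held Gly-GCC or Gly-TCC and did not mark a mitochondrial tRNA, which gave 33 of the 615 listed fragments, 14 of Gly-GCC and 19 of Gly-TCC. The 3 nicotine libraries and the 3 saline libraries came from separately numbered Sprague-Dawley rats of 6 to 8 weeks, and the labels used here give neither the dose nor the duration of the treatment. Each library was made by ligating adapters to total RNA of the hippocampus, a brain structure needed for memory, and the deposited unit was CPM, in which reads are divided by a library total. Nicotine, the alkaloid of tobacco, activates nicotinic acetylcholine receptors, and saline is its vehicle control. The files hold tRNA fragments alone, so the tissue could not be checked against marker genes.

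A transfer RNA carries an amino acid to the ribosome and pairs with the codon through its anticodon, so Gly-GCC and Gly-TCC tRNAs insert glycine at different codons. Cuts in or near the anticodon loop release the long 5' fragments, among them the stress-induced tiRNAs that angiogenin cuts. Cuts in the T arm release short 3' fragments that keep the CCA tail of the mature tRNA, and the trailers (tRF-1) are the pieces that RNase Z removes from the 3' end of the precursor. The 5' fragments of glycine tRNAs are among the most abundant tRNA fragments known in mammalian tissues and body fluids. The RefSeq annotation of the rat assembly GRCr8 names 22 Gly-GCC, 21 Gly-TCC and 5 Gly-CCC tRNA genes. It was used for these numbers only, since the sources used here do not give the build behind the files.

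The library totals implied by the CPM step were 90828, 122282 and 128694 reads in the nicotine libraries, against 374763, 154414 and 206221 reads in the saline libraries. The deepest nicotine library thus had fewer reads than the shallowest saline library, so the effect of treatment and of depth cannot be told apart. Gly-GCC fragments had 3348 to 4657 reads in nicotine libraries and 6440 to 18641 in saline libraries, and Gly-TCC fragments had 99 to 239 and 141 to 247. One read was worth 7.77 to 11.01 CPM in nicotine and 2.67 to 6.48 CPM in saline libraries. In tissue, fewer cells of a type and less RNA per cell cannot be told apart. Intervals given for shares of reads are 95% Wilson intervals and cover counting error only, because the protocols describe no molecular identifiers.

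The 2 anticodons were compared first, within each library. Gly-TCC and Gly-GCC were read as different kinds of fragment. All shares here are of the reads of listed fragments, and every listed fragment reached 20 CPM in some library. What fragments left off the list would add to either anticodon was not tested. Most listed Gly-TCC reads were trailers, at 59.6% to 83.3% of the anticodon's reads over the 6 libraries, against 0.109% to 0.223% for Gly-GCC. Nearly all Gly-GCC reads were 5' fragments, at 99.2% to 99.7%, against 5.44% to 14.2% for Gly-TCC. Fragments that end in the CCA tail took 9.31% to 28.3% of Gly-TCC and 0.195% to 0.657% of Gly-GCC reads. The ranges of the 2 anticodons did not meet for any of these kinds, in either treatment.

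The difference between Gly-TCC and Gly-GCC was 69.2 ± 9.80 percentage points for trailers, 18.8 ± 7.89 for 3' fragments and -88.0 ± 3.12 for 5' fragments (SD, n = 6 libraries). Each had the same direction in 6 of 6 libraries, with an exact two-sided sign-flip permutation p of 0.031, the smallest that 6 pairs allow, and an adjusted p of 0.031 over the 7 values tested within libraries. All 7 values had that smallest p, so the adjustment left it unchanged. These shares add up to the whole of each anticodon's listed reads, so they are not separate tests. Those of 5' fragments and trailers were added after their values were seen. Their direction was then known, so their p was fixed beforehand and adds no support. In total Gly-TCC was read far less than Gly-GCC. Its summed level was 1178, 809.6 and 1857 CPM in the nicotine libraries and 659 to 1198 CPM in the saline libraries, where Gly-GCC had 36861, 36751 and 36187 CPM and 41706 to 49741 CPM. The log2 ratio of Gly-TCC to Gly-GCC lay between -6.24 and -4.28 over the 6 libraries (exact sign-flip permutation p = 0.031).

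**Figure D1:**
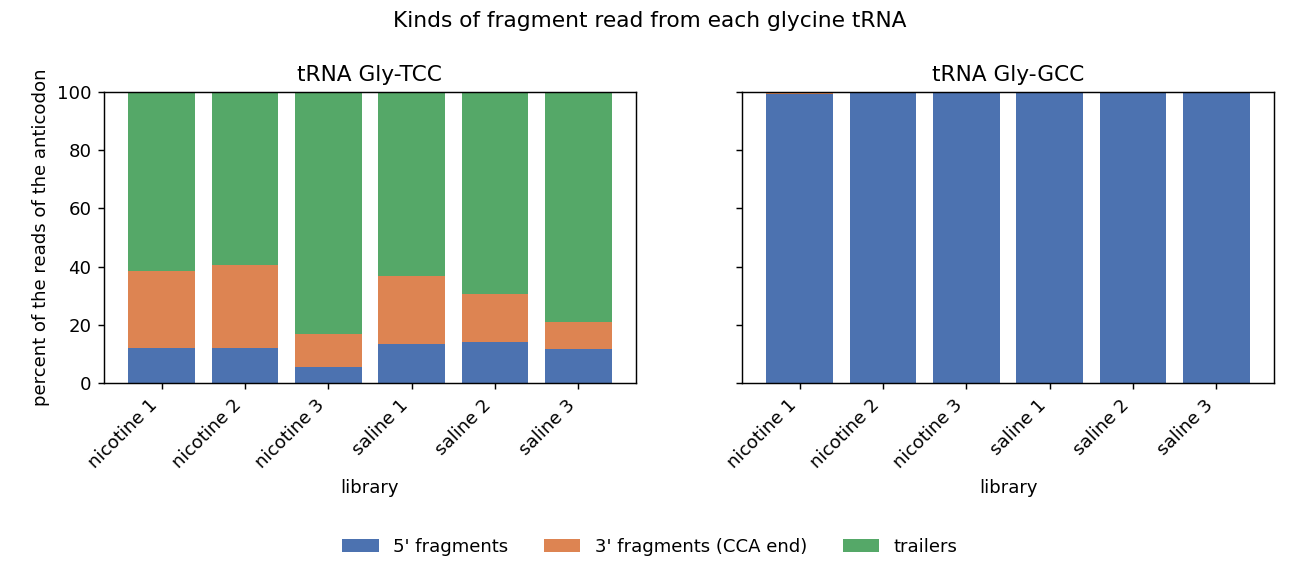
Stacked bars show the percent of each anticodon's listed reads (y axis, 0 to 100) in 5' fragments, 3' fragments and trailers for the 6 libraries (x axis). Gly-TCC is on the left and Gly-GCC on the right. Trailers fill 59.6% to 83.3% of every Gly-TCC bar, and 5' fragments fill at least 99.2% of every Gly-GCC bar.

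The absolute levels narrow what these shares describe. Summed 5' fragments were at 98.1 to 143 CPM of Gly-TCC in nicotine libraries and 88.1 to 141 CPM in saline libraries, against 36000 to 36553 CPM and 41486 to 49541 CPM of Gly-GCC. The 3' fragments differed far less between the anticodons, with 210 to 308 CPM of Gly-TCC against 132 to 242 CPM of Gly-GCC in nicotine libraries, and 112 to 155 CPM against 82.4 to 175 CPM in saline libraries. Trailers were the one kind whose Gly-TCC range lay above the Gly-GCC range in both groups, at 482 to 1546 CPM against 54.4 to 81.8 CPM in nicotine and 416 to 946 CPM against 45.3 to 66.7 CPM in saline libraries. The levels follow the names the reads were given. How alike the 5' ends of Gly-GCC and Gly-CCC tRNAs are was not tested, so the split of 5' reads between the 2 names is uncertain.

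The 5' fragments of Gly-GCC formed a ladder from 28 to 33 nt, with a 16 nt and a 22 nt form besides. The 32 nt form tRF-1:32-Gly-GCC-2-M2, which runs from the first base of the tRNA to base 32, was the most abundant member, at 18408, 11662 and 9853 CPM in the nicotine libraries and 22860, 15193 and 23819 CPM in the saline libraries. Nicotine 1 lay inside the saline range and the other nicotine libraries lay below it, so the groups overlapped. Its log2 fold change was -0.66 (SE 0.37, limma with Benjamini-Hochberg adjustment, adjusted p = 0.689), and it was -0.41 as a share of the listed reads.

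One base shorter, tRF-1:31-Gly-GCC-2-M2 had 8081, 10010 and 12759 CPM in the nicotine and 13112, 14442 and 9407 CPM in the saline libraries. All nicotine libraries lay below saline 1 and saline 2, and only nicotine 1 lay below saline 3. Its log2 fold change was -0.26 (SE 0.37, limma adjusted p = 0.896). It was -0.59 after rescaling by TMM (edgeR's trimmed mean of M values) and -0.02 as a share of the listed reads, and spanned -0.45 to -0.10 with 1 library left out.

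The 30 nt form tRF-1:30-Gly-GCC-2-M2 was set apart by 1 library. It had 1475, 1652 and 6885 CPM in the nicotine libraries and 2751, 3147 and 1896 CPM in the saline libraries, so nicotine 3 was the highest of the 6 and the other nicotine libraries the lowest. The log2 fold change of 0.01 (SE 0.49, limma adjusted p = 0.997) went to -0.70 without nicotine 3 and to 0.41 without nicotine 1. The 28 nt form tRF-1:28-Gly-GCC-2-M2 had 176, 360 and 303 CPM in nicotine and 307, 479 and 252 CPM in saline libraries, and overlapped. The 29 nt form had 132 to 295 CPM in nicotine and 184 to 343 CPM in saline libraries.

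At 33 nt the files call the fragment a tiRNA. The larger of the 2 listed, tiRNA-1:33-Gly-GCC-1, had 7817, 12169 and 5595 CPM in the nicotine and 9876, 7622 and 6188 CPM in the saline libraries. Nicotine 2 was the highest and nicotine 3 the lowest of all 6, with the saline libraries between them. The smaller, tiRNA-1:33-Gly-GCC-2-M2, had 418, 376 and 264 CPM in the nicotine and 352, 233 and 432 CPM in the saline libraries. Their log2 fold changes were 0.06 (SE 0.38) and 0.08 (SE 0.39), with limma adjusted p of 0.979 and 0.966, and both turned negative after TMM rescaling, at -0.26 and -0.25.

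At the 33 nt step the reads named Gly-GCC parted from those named Gly-CCC, the third nuclear glycine anticodon, whose 31 fragments include the most abundant of the whole list. Fragments of 33 nt made up 22.5%, 34.3% and 16.3% of the 5' reads of Gly-GCC in the nicotine libraries and 20.6%, 18.9% and 15.7% in the saline libraries, against 0.307% to 0.559% of Gly-CCC in nicotine and 0.293% to 0.390% in saline libraries. The difference between Gly-GCC and Gly-CCC was 21.0 ± 6.83 percentage points (SD, n = 6 libraries, higher in 6 of 6, exact two-sided sign-flip permutation p = 0.031). That value was chosen after the ladder had been seen. Its direction in the 6 libraries was then known, so this p was fixed beforehand and adds no support. The names bear on the difference. tiRNA-1:33-Gly-GCC-1 is the only listed fragment of Gly-GCC-1, while every shorter 5' fragment of Gly-GCC carries the name Gly-GCC-2-M2. The sign-flip test therefore cannot tell a difference between the tRNAs from one in how reads were named. The sources used here do not say what the suffix M stands for, and whether shorter 5' fragments of Gly-GCC-1 were listed under another name was not tested.

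At 32 nt the 2 ladders ranked the libraries in the same order. At 28 to 31 nt the orders were not identical, though at 30 nt nicotine 3 and saline 2 led in both. The 32 nt form took 50.4%, 31.9% and 27.4% of the 5' reads of Gly-GCC in the nicotine libraries and 46.1%, 36.6% and 56.4% in the saline libraries. For Gly-CCC it took 62.6%, 50.8% and 46.6% in the nicotine and 59.3%, 52.1% and 64.0% in the saline libraries. The order of the 6 libraries at 32 nt was the same for both anticodons, with saline 3 the highest, nicotine 1 next and nicotine 3 the lowest. The 30 nt form took 19.1% of the 5' reads of Gly-GCC and 11.3% of those of Gly-CCC in nicotine 3, against at most 7.59% and 7.85% in any other library.

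**Figure D2:**
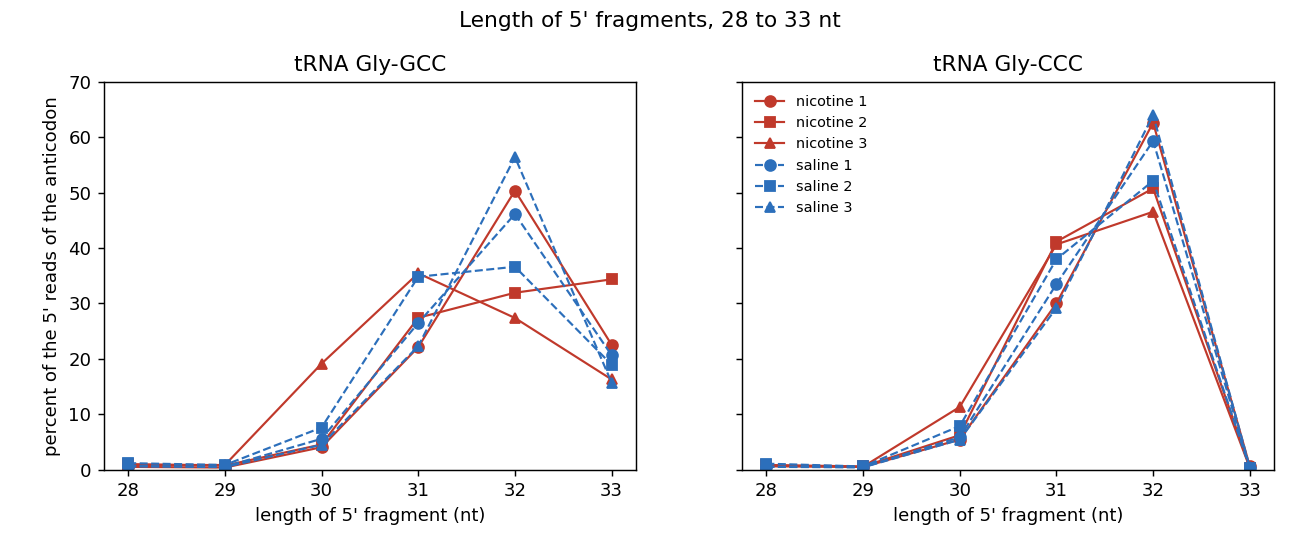
Lines show the percent of the 5' reads of each anticodon (y axis) at each length from 28 to 33 nt (x axis), 1 line per library, with Gly-GCC on the left and Gly-CCC on the right. Gly-GCC keeps 15.7% to 34.3% of its 5' reads at 33 nt, where Gly-CCC has at most 0.559%, and the nicotine 3 line stands above the others at 30 nt in both panels.

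Gly-TCC had no such ladder. Its listed 5' fragments had 14, 15, 28, 31 and 32 nt, and together they had 12 to 13 reads in each nicotine library and 20 to 33 reads in each saline library. The mean length of its 5' reads was 21.5, 21.2 and 27.5 nt in the nicotine and 25.2, 24.4 and 25.1 nt in the saline libraries, against 31.4 to 31.9 nt and 31.6 to 31.8 nt for Gly-GCC. Within libraries the difference was -7.58 ± 2.57 nt (SD, n = 6 libraries, shorter in 6 of 6, exact two-sided sign-flip permutation p = 0.031). Fragments of at least 31 nt took 30.8% (Wilson interval 12.7 to 57.6) to 69.2% (42.4 to 87.3) of the Gly-TCC 5' reads, against 79.1% to 95% for Gly-GCC, a difference of -39.6 ± 20.04 percentage points (SD, n = 6 libraries, exact sign-flip permutation p = 0.031). With the 5' fragments that were read in all 6 libraries alone, the difference in that share missed the threshold (-28.7 points, exact permutation p = 0.0625), and in nicotine 3 it ran the other way.

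The 32 nt form tRF-1:32-Gly-TCC-1 had 22.0, 24.5 and 46.6 CPM in the nicotine and 40.0, 32.4 and 53.3 CPM in the saline libraries, and its 31 nt neighbour had 8.18 to 23.3 CPM and 10.7 to 38.9 CPM. The shortest, tRF-1:14-Gly-TCC-1-M2, had 77.1, 49.1 and 7.77 CPM in nicotine and 24.02, 38.9 and 29.1 CPM in saline libraries. Nicotine 1 and nicotine 2 were above every saline library and nicotine 3 below them all. Its counterpart in Gly-GCC, the 16 nt tRF-1:16-Gly-GCC-2-M2, had 22.0, 8.18 and 23.3 CPM in nicotine and 18.7, 25.9 and 24.2 CPM in saline libraries, and the groups overlapped for all of these.

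The 3' fragments of the 2 tRNAs ended in the CCA tail, at a last base numbered 74 in Gly-GCC and 75 in Gly-TCC, and came in the same length classes. Both had forms of 17, 18 and 22 nt, and Gly-TCC had 1 of 21 nt besides. The 18 nt form was the most abundant in each anticodon. In Gly-TCC this was tRF-58:75-Gly-TCC-1-M2, at 143, 131 and 77.7 CPM in the nicotine libraries and 56.0, 58.3 and 33.9 CPM in the saline libraries. Every nicotine library lay above every saline library on the deposited CPM. Its log2 fold change of 1.22 (SE 0.54) had the smallest unadjusted p of the 33 members, 0.0278, and did not pass over all fragments (limma with Benjamini-Hochberg adjustment, adjusted p = 0.657). It rested on 39 reads over the nicotine and 37 over the saline libraries. After TMM rescaling the groups overlapped for this fragment, with nicotine 3 below saline 1. Its log2 fold change was then 0.90, and it was 0.89 in edgeR with TMM and 0.88 in DESeq2.

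The 18 nt form of Gly-GCC, tRF-57:74-Gly-GCC-2-M2, had 121, 73.6 and 93.2 CPM in the nicotine and 85.4, 104 and 48.5 CPM in the saline libraries, with overlap. Its log2 fold change was 0.31 (SE 0.52, limma adjusted p = 0.914). The 17 nt forms were highest in nicotine 1 in both anticodons. That of Gly-TCC had 77.1 CPM there and 24.5 to 46.6 CPM in the other nicotine libraries, and that of Gly-GCC had 66.1 CPM there and 7.77 to 24.5 CPM. The saline libraries had 14.5 to 29.4 CPM of the Gly-TCC and 10.7 to 19.4 CPM of the Gly-GCC form. The 22 nt forms overlapped, at 54.4 to 77.1 CPM in nicotine and 48.5 to 64.8 CPM in saline libraries for Gly-TCC, and 31.1 to 55.05 CPM and 14.5 to 58.3 CPM for Gly-GCC. The 21 nt form of Gly-TCC had 8.18 to 31.1 CPM and 6.48 to 18.7 CPM.

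Trailers belong to the precursor, whose 3' end can differ between copies of a tRNA gene. The 10 Gly-TCC trailers carried 5 tRNA names, of which Gly-TCC-1 also names 5' fragments, and had 14 to 16 nt. Those of 14 nt made up 78.6% to 85.1% of the trailer reads in every library. The name Gly-TCC-2-2 gave 45.9% to 65.2% of them, and its 14 nt form tRF-+1:T14-Gly-TCC-2-2 was the most abundant Gly-TCC fragment. It had 407, 229 and 855 CPM in the nicotine libraries and 192, 227 and 524 CPM in the saline libraries. Nicotine 3 and saline 3 were the highest of their groups, and the groups overlapped (log2 fold change 0.60, SE 0.46, limma adjusted p = 0.767). That value was 0.11 without nicotine 3, 1.05 without nicotine 2 and 0.28 after TMM rescaling.

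The next most abundant trailers ranked the saline libraries in the same order but did not follow each other in the nicotine libraries. tRF-+1:T14-Gly-TCC-1 had 33.03, 98.1 and 256 CPM in the nicotine and 96.1, 155 and 189 CPM in the saline libraries, so its lowest and its highest value were both in nicotine. tRF-+1:T14-Gly-TCC-1-3 had 143, 8.18 and 69.9 CPM in nicotine and 29.4, 64.8 and 72.7 CPM in saline libraries. In nicotine 1 tRF-+1:T14-Gly-TCC-1-3 was the higher of the pair, on 13 reads against 3. In nicotine 2 tRF-+1:T14-Gly-TCC-1 was, on 12 reads against 1. The 15 nt form under the same name, tRF-+1:T15-Gly-TCC-1-3, had 22.0, 16.4 and 46.6 CPM in nicotine and 10.7, 12.95 and 9.70 CPM in saline libraries, without overlap but on 2 to 6 reads a library. The remaining Gly-TCC trailers had mean levels of 9.75 to 48.6 CPM.

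Gly-GCC had 2 listed trailers, both under the name Gly-GCC-2-M2 that its 5' and 3' fragments carry. tRF-+1:T15-Gly-GCC-2-M2 had 55.05, 57.2 and 15.5 CPM in the nicotine and 40.0, 32.4 and 29.1 CPM in the saline libraries, and the 16 nt form had 11.01 to 38.9 CPM and 12.95 to 26.7 CPM. The groups overlapped for both.

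The treatments were then compared for all members by limma on log2(CPM + 1) over the whole table. All 33 members passed the filter on low values, and 0 of the 33 passed a Benjamini-Hochberg adjusted p of 0.05, against 0% of the 586 fragments tested (0 of 586). At an unadjusted p under 0.05 there was 1 member, the 18 nt 3' fragment of Gly-TCC, and 41 of all fragments. On whole reads recovered from the CPM values, edgeR with TMM and DESeq2 also passed 0 members, of 11 and 33 tested, with 1 at an unadjusted p under 0.05 in each, the 32 nt form of Gly-GCC, which was lower in nicotine (log2 fold change -0.98 and -1.01). Over all fragments these were 13 of 221 in edgeR and 17 of 615 in DESeq2. In edgeR without a scaling factor that 1 member was again the 18 nt 3' fragment of Gly-TCC, at 1.21, beside 21 of 221 fragments.

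Of the 33 members 21 were higher and 12 lower in nicotine libraries on the deposited CPM. After TMM rescaling 12 were higher and 21 lower, and as shares of the listed reads 23 were higher and 10 lower. The median log2 fold change of all 586 fragments was 0.28 on the deposited CPM, -0.02 after TMM rescaling and 0.52 for shares of the listed reads, so each direction is relative to that. The 5' fragments had a median of -0.22 in Gly-GCC (9 fragments) and -0.47 in Gly-TCC (5 fragments), beside 0.03 over all 296 tested 5' fragments. The 3' fragments had a median of 0.45 in Gly-GCC (3 of 3 higher) and 0.68 in Gly-TCC (4 of 4 higher), beside 0.47 over all 159. After TMM rescaling 2 of 3 and 2 of 4 were higher. Among the other glycine fragments, 0 of 31 of Gly-CCC and 0 of 1 of the mitochondrial Gly-TCC passed, and Gly-CCC had medians of -0.22 for 5' and 0.33 for 3' fragments.

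**Figure D3:**
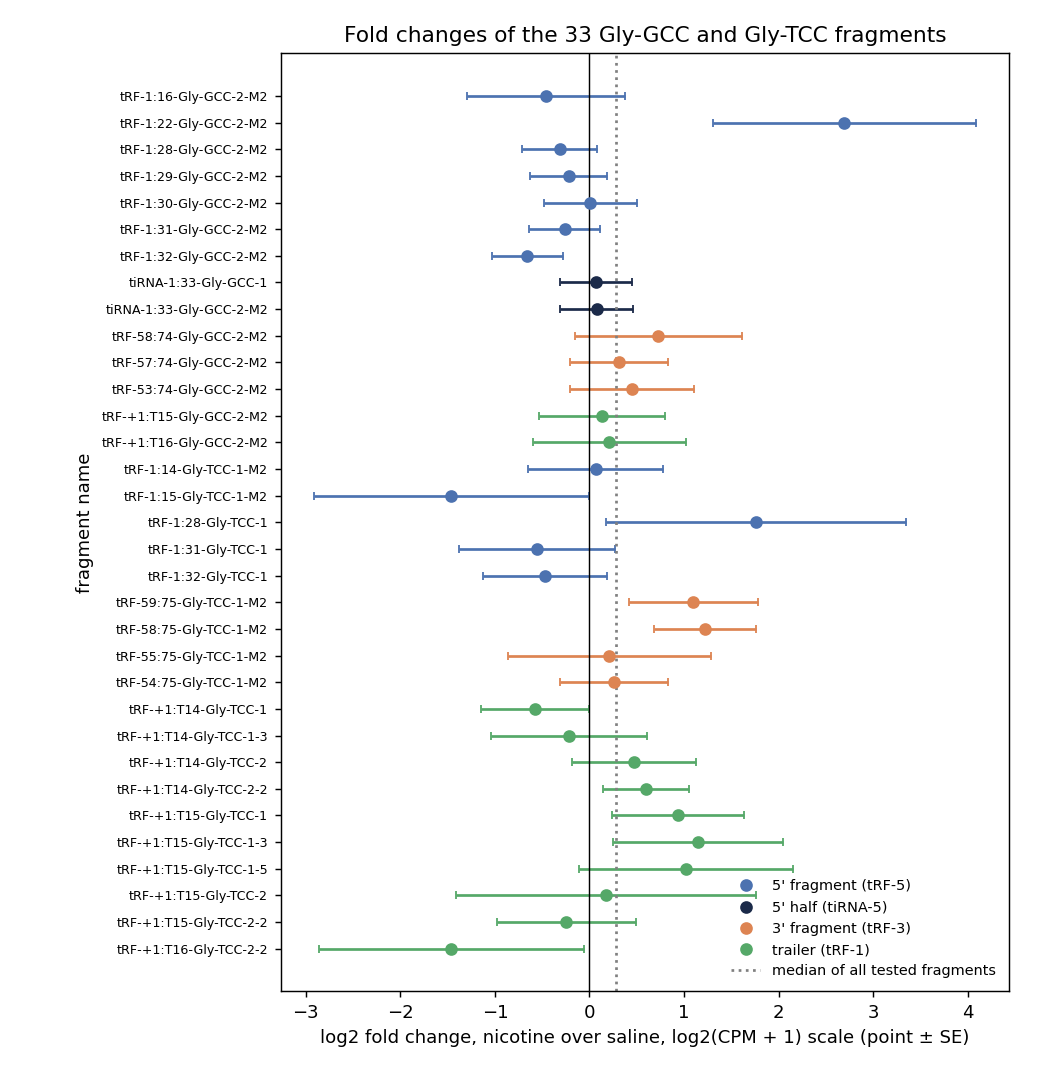
Points show the log2 fold change of nicotine over saline with its SE (x axis) for each of the 33 fragments (y axis), coloured by fragment kind. The dotted line is the median of all tested fragments at 0.28, and the 7 3' fragments all lie above 0, from 0.21 to 1.22, on the deposited CPM, and 4 of the 7 do after TMM rescaling.

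The groups did not overlap for 4 members, all higher in nicotine, against 12.6% of all tested fragments higher and 1.54% lower without overlap. Besides the 18 nt 3' fragment and the 15 nt trailer of Gly-TCC, these were the 22 nt tRF-1:22-Gly-GCC-2-M2 and the 28 nt tRF-1:28-Gly-TCC-1. The 22 nt form had 22.0, 24.5 and 23.3 CPM in the nicotine and 8.01, 0 and 4.85 CPM in the saline libraries. This rested on 8 reads in nicotine and 4 in saline, and a count of 0 in saline 2 allowed up to 19.4 CPM. The 28 nt form had 22.0, 8.18 and 7.77 CPM against 5.34, 6.48 and 0 CPM, on 4 and 3 reads, and the 15 nt trailer rested on 10 and 8.

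How a fragment came to be listed bears on these counts. The maximum of every listed fragment was 20 CPM or more, and 2 reads in nicotine 1 were enough for that. Of the 33 members 7 reached it in nicotine libraries alone, and 2 in saline libraries alone, beside 165 and 23 of all 615 fragments. Of the 4 members without overlap, 3 were among those 7, and the 18 nt 3' fragment of Gly-TCC reached it in both groups. After TMM rescaling 2 members were higher and 2 lower without overlap, beside 37 and 23 of the 586 fragments. The 18 nt 3' fragment of Gly-TCC was not among those 2 higher members.

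Summed over each kind, the tRF-5 fragments of Gly-GCC, those of 16 to 32 nt, had 28317, 23977 and 30141 CPM in the nicotine and 39313, 33630 and 35588 CPM in the saline libraries. All nicotine libraries lay below all saline libraries, as for 0.581% of the 172 families tested. The log2 fold change was -0.40 (SE 0.26, limma with Benjamini-Hochberg adjustment, adjusted p = 0.542). It was -0.73 after TMM rescaling, -0.89 in edgeR with TMM (adjusted p = 0.611) and -0.81 in DESeq2 (adjusted p = 0.291). These were the lowest adjusted p over families in both fits, but the adjustment did not give them to this family alone. As a share of the listed reads the log2 fold change of this sum was -0.16, and the groups overlapped. The tRF-3 fragments of Gly-TCC had 308, 229 and 210 CPM in the nicotine and 155, 149 and 112 CPM in the saline libraries, above them without overlap, as for 15.7% of families. Their log2 fold change was 0.84 (SE 0.37, limma adjusted p = 0.542), and the same value was 0.51 after TMM rescaling, 0.32 in edgeR with TMM and 0.41 in DESeq2. After TMM rescaling the groups overlapped for this sum, with nicotine 3 below saline 1. None of the 7 families of these anticodons passed, nor any of the 172 families (0%). At an unadjusted p under 0.05 there were 14 of 172 families in limma, and edgeR with TMM and DESeq2 passed 0 as well, with 8 and 6.

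The remaining families overlapped. The tiRNAs of Gly-GCC had 8235, 12545 and 5859 CPM in nicotine and 10228, 7856 and 6619 CPM in saline libraries, and its tRF-3 fragments had 242, 147 and 132 CPM and 133, 175 and 82.4 CPM. The trailers of Gly-TCC had 727, 482 and 1546 CPM in nicotine and 416, 635 and 946 CPM in saline libraries, a log2 fold change of 0.37 that went to -0.09 without nicotine 3.

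**Figure D4:**
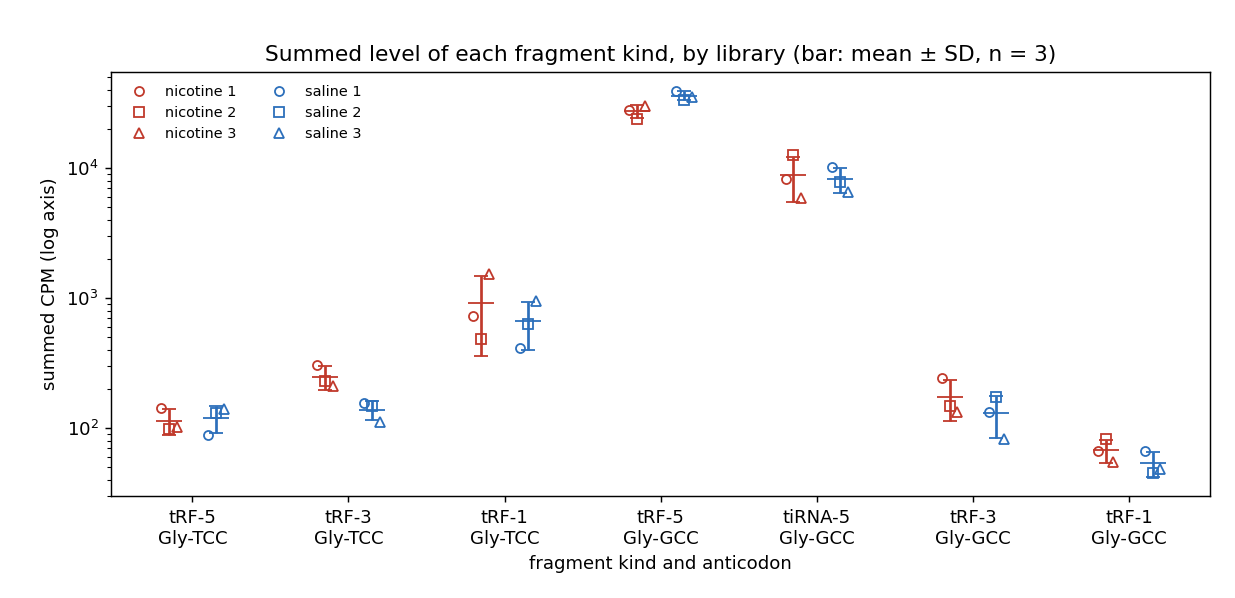
Open symbols show the summed CPM of each fragment kind and anticodon (y axis, log scale) in each library, nicotine left of saline, with bars for the mean ± SD (n = 3 each). On the deposited CPM the groups are apart for the tRF-3 fragments of Gly-TCC, where nicotine is higher, and for the tRF-5 fragments of Gly-GCC, where nicotine is lower.

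Over all kinds, Gly-GCC fragments summed to 36861, 36751 and 36187 CPM in the nicotine libraries and 49741, 41706 and 42338 CPM in the saline libraries. The nicotine libraries lay below the saline libraries, as for 1.52% of the 66 anticodons tested (9.09% lay above), and the log2 fold change was -0.28 (SE 0.28, limma adjusted p = 0.493). It was -0.61 after TMM rescaling, -0.75 in DESeq2 and -0.04 as a share of the listed reads. The listed fragments as a whole took 47.1% to 57.4% of the library total in nicotine and 52.7% to 68.8% in saline libraries. As a share of the listed reads Gly-GCC had 7.51%, 6.40% and 7.67% in nicotine and 7.23%, 6.87% and 8.03% in saline libraries, with overlap. Gly-TCC summed to a log2 fold change of 0.43 (SE 0.32, limma adjusted p = 0.390), with overlap. That was 0.12 without nicotine 3, 0.72 without nicotine 2, 0.11 after TMM rescaling and 0.04 in DESeq2. None of the 66 anticodons passed (0%), and 5 had an unadjusted p under 0.05 in limma.

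Whether the treatment difference itself differed between the anticodons was tested on the ratio of Gly-TCC to Gly-GCC. The log2 ratio was -4.97, -5.50 and -4.28 in the nicotine libraries and -6.24, -5.51 and -5.14 in the saline libraries. Nicotine 2 and saline 2 were nearly equal, and saline 3 lay above nicotine 2, so the groups overlapped. The difference was 0.71 (exact two-sided permutation p = 0.2, adjusted p = 0.7 over 7 values, where the smallest p that 3 against 3 libraries allow is 0.1), and 0.40 without nicotine 3. Between the 5' fragments of both anticodons alone it was 0.23 (exact permutation p = 0.6). The mean length of 5' reads, their share at 31 nt or longer and the share of 3' fragments, each for both anticodons, had exact permutation p of 0.3 to 1. For Gly-GCC 3' fragments took 0.657%, 0.401% and 0.365% in the nicotine and 0.268%, 0.419% and 0.195% in the saline libraries.

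The families with the profile most like the tRF-5 fragments of Gly-GCC over the 6 libraries were the 5' tiRNAs of His-GTG, the tRF-5 fragments of Lys-CTT and those of Gly-CCC. They differed from it by a root mean square of 0.24, 0.24 and 0.28 in centred log2(CPM + 1), against a median of 0.55 over 89 families with a mean of at least 100 CPM. For the tRF-5 fragments of Gly-TCC they were the tRF-3 fragments of Leu-AAG, the 3' tiRNAs of mitochondrial His-GTG and the tRF-3 fragments of Glu-TTC, at 0.23, 0.26 and 0.27, against a median of 0.45. The Gly-TCC profile rested on 12 to 33 reads a library, and whether this ranking exceeds counting error was not tested. All these profiles share the libraries and their totals.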

How the data were processed

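Small RNA libraries of the hippocampus of 3 nicotine-treated and 3 saline-treated rats were analysed, grouped and numbered by the sample titles. FastQC, cutadapt and Bowtie are named, without versions, per the submitters' processing notes, and the sources used here do not give the tRNA annotation. The authors deposited CPM per named fragment. Per the file headers 4 of the 6 files hold CPM, and the other 2 were read as CPM from their values. Every value was a whole number of reads within 0.001 reads (100% of values), which gave the library totals. No pair of replicates agreed within sampling noise (chi-square per degree of freedom 11.9 to 24.4). Apart from the sign-flip tests, p-values rest on the spread between these libraries, which the fits in part pool across fragments. The sign-flip permutation p is 0.031 wherever 6 of 6 libraries share a direction, whatever their spread.

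Kinds were assigned from start, end and length in the name. Fragments, sums over kind and anticodon (families) and sums over anticodon were tested with limma 3.58.1 (trend, robust; R 4.3.3) on log2(CPM + 1), two-sided, where 3 or more libraries had 1 CPM or more, adjusted over the whole table at 0.05. The pseudocount lies below the value of 1 read, and where a library had 0 reads the fitted change depends on it. Recovered reads were tested with edgeR 4.0.16 and DESeq2 1.42.0, alternatives added after the data were seen. Values per library were compared with exact permutation tests (scipy 1.17.1), unpaired between treatments and by sign flips within libraries. The shares of 5' fragments and trailers and the 33 nt share were added to the sign-flip tests after their values were seen. The limma tests across fragments and families were first run on simulated counts, and edgeR and DESeq2 were not. Members, lists and tests were chosen with earlier results of these data known. Values for every library are given for the 6 Gly-GCC and 4 Gly-TCC fragments with the highest mean CPM, the most abundant of each further kind and each member without overlap. Alternatives covered pseudocounts of 0.5 and 10, the filter, the scaling, a replicate block and each library left out.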

Additional observations from a re-analysis of the deposited data

How the results depend on the processing

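Nothing passed for the members, families or anticodons under the other pseudocounts, without the filter, after TMM rescaling, as shares of listed reads or on whole reads. Without nicotine 3, 2 families and 5 fragments passed, and without saline 2 there was 1 fragment, with 0 to 5 and 0 to 2 as the ranges over the libraries left out and 0 members. With a replicate block 1 fragment passed and 0 members. The samples share only a number: rats with the same number correlated at 0.087, 0.11 and 0.16 across fragments, after centring within each group. Every library correlated best with its own number, but these values are low, and whether the rats were paired was not tested. Whole-read tests, the counts without overlap and the comparison with Gly-CCC were added after the data were seen.

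Some directions rest on the scaling, and the cause was not tested. After TMM rescaling the log2 fold change was -0.26 for tiRNA-1:33-Gly-GCC-1, -0.25 for tiRNA-1:33-Gly-GCC-2-M2, -0.31 for tRF-1:30-Gly-GCC-2-M2, -0.19 for tRF-+1:T15-Gly-GCC-2-M2, -0.0081 for tRF-57:74-Gly-GCC-2-M2, -0.25 for tRF-1:14-Gly-TCC-1-M2 and -0.26 for the summed tiRNAs of Gly-GCC. With edgeR it was -0.19 and -0.28 for the 2 tiRNAs, -0.052 for tRF-57:74-Gly-GCC-2-M2, -0.090 for the summed tRF-3 and -0.37 for the summed tiRNAs of Gly-GCC. With DESeq2 it was -0.23 and -0.31 for the 2 tiRNAs, -0.055 for tRF-+1:T15-Gly-GCC-2-M2, -0.082 for tRF-57:74-Gly-GCC-2-M2, 0.041 for tRF-+1:T14-Gly-TCC-1-3, and -0.11, -0.015 and -0.30 for the summed trailers, tRF-3 and tiRNAs of Gly-GCC. As shares of listed reads it was 0.0099 for tRF-+1:T14-Gly-TCC-1-3 and 0.18 for the summed tRF-5 of Gly-TCC.

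Leaving out 1 library turned some directions. The log2 fold change spanned -0.23 to 0.33 for tiRNA-1:33-Gly-GCC-1, -0.17 to 0.27 for tiRNA-1:33-Gly-GCC-2-M2, -0.70 to 0.41 for tRF-1:30-Gly-GCC-2-M2, -0.18 to 0.73 for tRF-+1:T15-Gly-GCC-2-M2 and -0.00038 to 0.54 for tRF-57:74-Gly-GCC-2-M2. It spanned -1.29 to 0.17 for tRF-+1:T14-Gly-TCC-1, -1.05 to 0.94 for tRF-+1:T14-Gly-TCC-1-3, -0.57 to 1.01 for tRF-1:14-Gly-TCC-1-M2, and, for sums, -0.22 to 0.33 for tiRNAs of Gly-GCC, -0.26 to 0.073 for tRF-5 and -0.089 to 0.75 for trailers of Gly-TCC. The difference between treatments in Gly-GCC spanned -0.115 to 0.163 nt in mean 5' length and -6.29 to 1.67 points in the share at 31 nt or longer. Members without overlap numbered 5 to 8 higher, 8 of them without nicotine 3, and 0 to 2 lower, beside 88 to 135 higher and 18 to 40 lower of the 586 fragments.

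Between anticodons the mean differences kept their direction in the alternatives run. In nicotine libraries alone the difference of Gly-TCC from Gly-GCC was -8.32 nt in mean 5' length, -44.8 points at 31 nt or longer, and 21.4, -89.4 and 68.0 points in 3', 5' and trailer shares, with a log2 ratio of -4.92. In saline libraries alone these were -6.83, -34.5, 16.1, -86.5, 70.4 and -5.63. The 33 nt share of Gly-GCC above Gly-CCC was 23.97 and 18.1 points in nicotine and in saline libraries alone. Leaving out 1 library gave -8.32 to -6.95 nt, -45.6 to -34.7, 16.9 to 20.7, -88.5 to -86.7 and 66.4 to 71.2 points, a log2 ratio of -5.47 to -5.08, and 18.4 to 22.2 points at 33 nt. With 3 or 5 libraries the smallest exact permutation p is 0.25 and 0.0625, so these missed the threshold by construction. The share at 31 nt or longer differed by -28.7 points over fragments read in all 6 libraries (exact permutation p = 0.0625), with nicotine 3 the other way.

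Depth limits the Gly-TCC 5' fragments, with 12 to 33 reads a library, and the members with 0 to 3 reads in a library.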
